A study of Mus musculus with 76 samples.

Results

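A set of 10 genes of the T lymphocyte lineage, Tcf7, Lck, Gata3, Cd3d, Cd3g, Cd3e, Bcl11b, Trat1, Tox and Lat, was followed through 76 single mouse cells. The 10 rows were taken by name from a table of 15192 genes, and the set was chosen with earlier results of these data known. The cells are called iHPCs and are blood progenitors made in culture from pluripotent stem cells in which Runx1, Hoxa9 and Hoxa10 can be induced. Every cell carried that same label and was sorted singly before polyA RNA was amplified. No untreated cells, second genotype or separate cultures were named, so the 76 cells counted as 1 sample and no p-value was made from them. The stem cell line and the sort gate were not given in the sources used here.

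A T cell is made in the thymus from a blood progenitor that receives a Notch signal. Notch induces the transcription factor genes Tcf7 (TCF-1) and Gata3, and Bcl11b then closes the other fates. The antigen receptor is a complex of variable chains with the CD3 gamma, delta and epsilon chains, encoded by Cd3g, Cd3d and Cd3e, and the zeta chain, encoded by Cd247. Lck is the kinase that phosphorylates these chains, Lat is the membrane scaffold on which the signal is assembled, Trat1 encodes a small adaptor bound to the receptor, and Tox is a nuclear factor needed for T cell selection and for innate lymphoid cells.

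Values were transcripts per 1000000 transcripts (TPM), a level scaled for gene length, so that levels of different genes can be set side by side. Detection was set at 1 TPM, and counts are also given at 10 TPM because several members fell into a low and a high range with almost nothing between. Between 2465 and 5992 genes per cell were detected (median 4182.5), and depth in reads is unknown. A value of 0 can be a failed capture, since Polr2a, which every cell uses, reached 1 TPM in 22 cells. Intervals are exact Clopper-Pearson 95% intervals and cover the counting of cells only.

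The members were spread over the whole range from nearly every cell to none. At 1 TPM, Lat was in 65 of 76 cells (85.5%, interval 75.6 to 92.5%), Lck in 44 (57.9%, 46 to 69.1%), Tcf7 in 37 (48.7%, 37 to 60.4%), Tox in 32 (42.1%, 30.9 to 54%) and Gata3 in 27 (35.5%, 24.9 to 47.3%). Trat1 followed in 15 cells (19.7%, 11.5 to 30.5%), Cd3g in 9 (11.8%, 5.56 to 21.3%) and Cd3d in 7 (9.21%, 3.78 to 18.1%). The intervals of neighbours in this order overlapped except between Lat and Lck. Bcl11b and Cd3e were in 0 cells, for which the exact interval ends at 4.74% and 3 counts of the total are 3.95%. Receptor adaptors and factors were thus found in many cells, while the CD3 chains were rare and the defining markers Cd3e and Bcl11b did not reach 1 TPM in any. Since a value of 0 can be a failed capture, these markers do not settle whether any cell was a T cell. Cell identity was not tested.

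**Figure D1:**
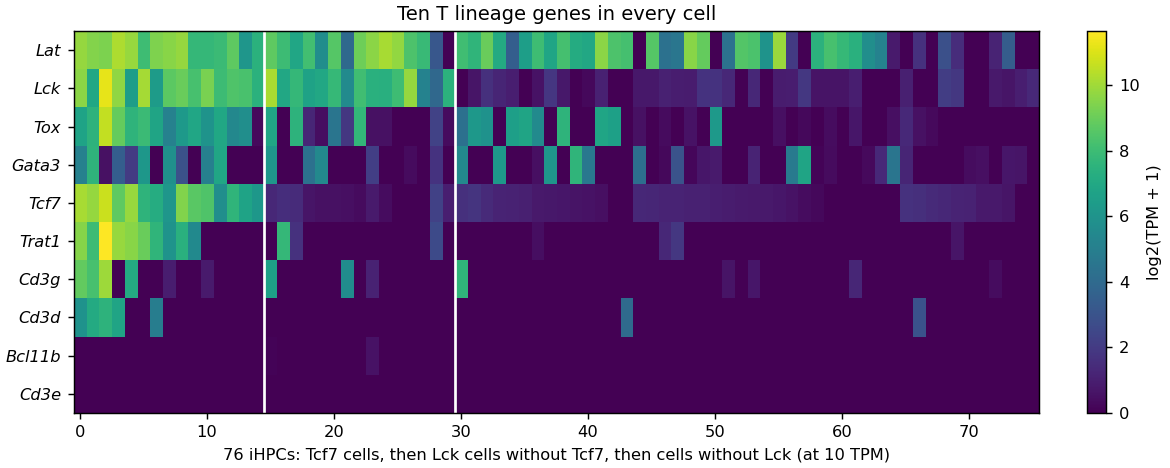
Level of each member (rows, log2 of TPM + 1, colour) in each of the 76 cells (columns). White lines separate the 15 cells with Tcf7 at 10 TPM, the 15 with Lck but not Tcf7, and the 46 without Lck; Lat fills most columns, Trat1, Cd3g and Cd3d lie mainly at the left, and the rows of Bcl11b and Cd3e are dark.

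The threshold mattered most for Tcf7. At 10 TPM it was in 15 cells, whose levels were 53.1 TPM at the lowest, 349 TPM at the median and 1687 TPM at the highest. No cell lay between 3.71 and 53.1 TPM, and 48 of the other 61 cells held a trace above 0 with a median of 0.889 TPM. The high cells therefore carried Tcf7 far above the rest, and the 22 cells between 1 and 10 TPM belonged to the trace range. All values under 10 TPM together made up 0.692% of the Tcf7 signal. The source of the traces was not tested. Of 51 cells under 10 TPM that shared a title letter with a cell of at least 100 TPM, 19 reached 1 TPM, and of the 10 others 3 did. The spans of Tcf7 and Skp1 overlap in RefSeq, and without knowledge of strand, reads from the shared stretch cannot be told apart.

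Lck showed the same pair of ranges. Its 30 cells at 10 TPM ran from 14.4 to 2345 TPM around a median of 238 TPM. No cell lay between 3.39 and 14.4 TPM. Trat1 ran from 45.4 to 3205 TPM in 11 cells (median 252 TPM), and its next value down was 5.18 TPM. Cd3g ran from 49 to 988 TPM in 7 cells (median 196 TPM), above a next value of 1.39 TPM. For these genes the count of cells was the same at any threshold inside the gap. Trat1 and Cd3g left few traces, with 6 and 7 cells above 0 but under 10 TPM, although the highest cell of Trat1 exceeded that of Tcf7.

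Lat and Gata3 were graded. Lat, found in 58 cells at 10 TPM, had values of 9.72 and 10.01 TPM on either side of that threshold, a median of 272 TPM above it and a highest cell of 1195 TPM. Gata3 was lower than Tcf7 and Tox: its 19 cells at 10 TPM had a median of 44.4 TPM (quartiles 25.2 and 74), a highest cell of 195 TPM and only 4 cells at 100 TPM. Tox was not graded: it lay at 18.5 to 1512 TPM (median 108 TPM) in its 28 cells, above a next value of 3.85 TPM. Cd3d was at 10 TPM in 6 cells, from 15.1 to 184 TPM with a median of 84.9 TPM, and at 6.75 TPM in a seventh. Bcl11b was listed above 0 in 2 cells, at 0.486 TPM at most, and Cd3e was listed at 0 in all 76. At 10 TPM the order of the members was Lat, Lck, Tox, Gata3, Tcf7, Trat1, Cd3g and Cd3d, so that Tcf7 came before Tox and Gata3 at 1 TPM and after both at 10 TPM.

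**Figure D2:**
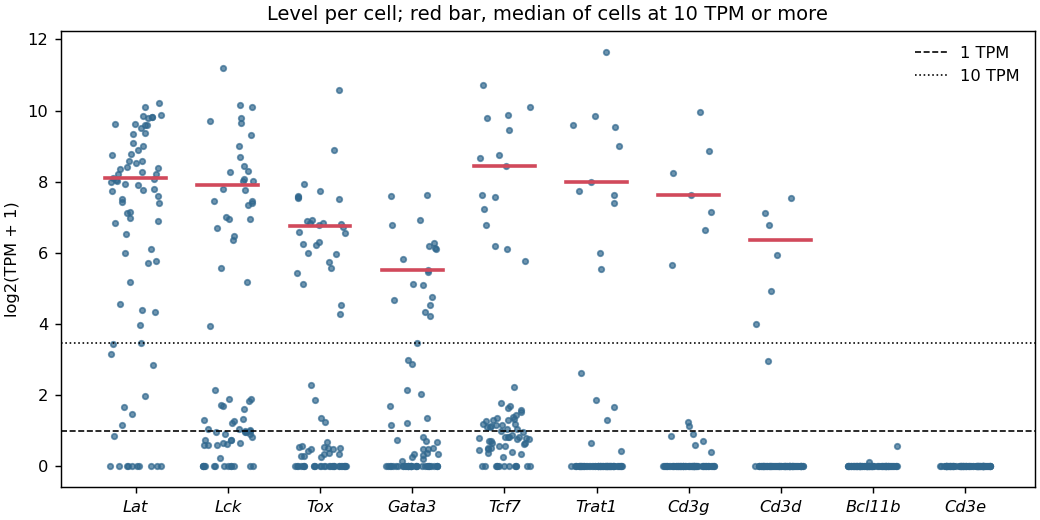
Level in each cell (points, log2 of TPM + 1) for the 10 members, with the median of the cells at 10 TPM or more (red bar) and lines at 1 and 10 TPM. Tcf7, Lck, Tox, Trat1 and Cd3g have an empty band around 10 TPM, and most Tcf7 points lie in the trace range near 1 TPM.

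In RefSeq (GRCm38.p6) the member genes lie at chr11:52246527-52283383 (Tcf7), chr4:129548344-129573641 (Lck), chr2:9857078-9887953 (Gata3), chr16:48730774-48810547 (Trat1), chr4:6686353-6991557 (Tox), chr7:126363827-126369705 (Lat) and chr12:107910403-108004145 (Bcl11b). The CD3 genes are neighbours on chromosome 9, at chr9:44969572-44980431 (Cd3g), chr9:44981769-44987052 (Cd3d) and chr9:44998735-45009663 (Cd3e). Promoters are shown for Lck and Trat1, which were often detected together, and for the CD3 pair. RefSeq promoters of build GRCm38.p6, from 250 bases before to 50 after a start, matched 9 of the 10 members with 11 promoters. The 4 motifs searched on both strands were TGTGGT for Runx factors, because Runx1 was induced, AGATAA for GATA factors and CTTTGA for TCF/LEF factors, because Gata3 and Tcf7 are members, and AGGAAG for ETS factors. Capitals mark the matches. The Lck starts shown are the upstream one at chr4:129573592-129573891 and the downstream one at chr4:129558323-129558622, both on the minus strand, since Lck is known to use a distal and a proximal promoter. Trat1 is at chr16:48772013-48772312 on the minus strand. Cd3g at chr9:44980382-44980681 on the minus strand and Cd3d at chr9:44981536-44981835 on the plus strand are neighbours that point away from each other.
Lck upstream start: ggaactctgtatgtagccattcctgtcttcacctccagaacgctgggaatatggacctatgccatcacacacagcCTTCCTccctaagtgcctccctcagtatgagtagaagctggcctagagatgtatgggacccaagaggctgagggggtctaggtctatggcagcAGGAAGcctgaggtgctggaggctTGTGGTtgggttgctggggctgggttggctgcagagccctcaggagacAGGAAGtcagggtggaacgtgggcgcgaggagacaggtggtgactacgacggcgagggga
Lck downstream start: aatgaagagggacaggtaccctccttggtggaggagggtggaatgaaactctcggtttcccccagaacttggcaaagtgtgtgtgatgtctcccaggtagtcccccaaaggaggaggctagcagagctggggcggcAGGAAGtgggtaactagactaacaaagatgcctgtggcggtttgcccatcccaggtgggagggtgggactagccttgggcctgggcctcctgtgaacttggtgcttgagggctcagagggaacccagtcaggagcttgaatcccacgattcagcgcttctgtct
Trat1: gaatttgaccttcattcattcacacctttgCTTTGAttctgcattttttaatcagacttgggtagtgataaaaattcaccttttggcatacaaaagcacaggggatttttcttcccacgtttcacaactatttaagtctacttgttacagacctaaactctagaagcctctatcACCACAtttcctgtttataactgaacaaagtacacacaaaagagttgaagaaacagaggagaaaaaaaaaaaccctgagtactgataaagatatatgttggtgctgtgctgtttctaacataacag
Cd3g: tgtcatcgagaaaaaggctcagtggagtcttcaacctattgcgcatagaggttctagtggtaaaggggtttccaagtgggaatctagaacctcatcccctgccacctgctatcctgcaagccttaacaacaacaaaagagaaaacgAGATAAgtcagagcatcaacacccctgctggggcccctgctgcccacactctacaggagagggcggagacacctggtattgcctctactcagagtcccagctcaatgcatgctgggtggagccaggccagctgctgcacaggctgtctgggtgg
Cd3d: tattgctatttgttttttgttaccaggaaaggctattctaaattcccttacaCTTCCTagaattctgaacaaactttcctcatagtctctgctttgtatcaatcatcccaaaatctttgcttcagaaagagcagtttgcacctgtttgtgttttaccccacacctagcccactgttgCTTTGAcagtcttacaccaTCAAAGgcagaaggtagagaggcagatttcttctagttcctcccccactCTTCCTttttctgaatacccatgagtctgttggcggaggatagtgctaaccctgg

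A Runx match was in the upstream Lck promoter, at 58 bases before the start, in Trat1 at 76 bases before and in Lat at 5 bases before, that is in 3 of 11 member promoters against 16.8% of 32851 promoters of the same length. The TCF/LEF letters were in Cd3d, at 73 and 54 bases before the start, and in Trat1 and Bcl11b, while 16% of all promoters hold them. The GATA letters were in Cd3g, against 11.2% of all promoters. ETS matches were in 6 of the 11, where 35.4% of all promoters have one. Neither Tcf7 promoter window nor that of Gata3 held any of the 4 motifs. These windows, and those of Trat1 and Bcl11b, lie inside the gene spans given above. Sequence before the outermost start of those genes was not searched. The table gives 1 level per gene, so transcripts from the upstream and downstream Lck starts cannot be told apart. Only 1337 bases separate the gene starts of Cd3g and Cd3d, and 3 of their 10 cells at 10 TPM held both transcripts.

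Detection was nested along Lat, Lck, Tcf7 and Trat1. At 10 TPM all 15 Tcf7 cells held Lck (100%, interval 78.2 to 100%), against Lck in 39.5% of all cells, and the product of the separate shares gives 5.92 cells. The reverse did not hold, because 15 of the 30 Lck cells lacked Tcf7. At 1 TPM, where traces count, 26 of 37 Tcf7 cells held Lck (70.3%, interval 53 to 84.1%), against 57.9% of all cells. All 11 Trat1 cells also held Lck. Among 2094 other genes found in 10 to 19 cells at 10 TPM, 0.143% had every one of their cells inside the Lck cells; these 3 genes were Atp8b4, Timp2 and Tmem121, named after their values were seen. Tcf7 and Trat1 both met that description.

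Lat enclosed the set more widely. Lck cells held Lat in 28 of 30 cases at 10 TPM, and all 15 Tcf7, 11 Trat1, 7 Cd3g and 6 Cd3d cells did so. Lat itself was in 76.3% of cells, and being wholly inside Lat was a property of 3.72% of other genes in 10 to 19 cells and of 19.7% of those in 5 to 9 cells. For the small Cd3g and Cd3d groups it was therefore common. Neither lay wholly inside the Lck cells, as 2.47% of 1743 other genes in 5 to 9 cells did. At 1 TPM all 15 Trat1, 9 Cd3g and 7 Cd3d cells held Lat, where the background was 12.4% for genes in 10 to 19 cells and 35.4% for genes in 5 to 9.

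Within the Tcf7 cells, the adaptor gene Trat1 was found in 10 of 15. Only 1 of the 11 Trat1 cells lacked Tcf7 at 10 TPM (90.9%, interval 58.7 to 99.8%, against 19.7% of all cells), and that cell held 1.87 TPM of Tcf7. At 1 TPM all 15 Trat1 cells held Tcf7, while 0% of 2224 other genes in 10 to 19 cells lay wholly inside the 37 Tcf7 cells. Apart from the 10 cells with both genes at 10 TPM, these cells held only traces of Tcf7, from 1.25 to 3.71 TPM. Trat1 itself was between 1 and 10 TPM in 4 cells. The count at 1 TPM thus rests in part on traces whose source was not tested. Of the 15 Tcf7 cells at 10 TPM, 14 held Tox, where the product of shares gives 5.53. Tox was not confined in turn: 10 of its 28 cells lacked Lck and 14 lacked Tcf7. The 18 Tox cells with Lck compare with a product of 11.1.

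A cell held a median of 3 members at 1 TPM and 2 at 10 TPM, and at most 8. At least 3 members were in 41 cells (53.9%) at 1 TPM and 24 (31.6%) at 10 TPM. At least 5 members were in 16 cells at 1 TPM and 13 at 10 TPM, and none was in 2 and 11 cells. The Spearman correlation of the count with the number of genes detected was 0.20 at 1 TPM and 0.14 at 10 TPM.

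Read as a chain from Lat through Lck and Tcf7 to Trat1, the 76 cells were ordered with few exceptions at 10 TPM. None of the 4 genes was in 16 cells, Lat alone of the 4 in 30, Lat and Lck in 12, Lat, Lck and Tcf7 in 5, and all 4 in 10. These ordered states covered 73 cells, and the exceptions were 2 cells with Lck alone and 1 with Lat, Lck and Trat1. At 1 TPM the ordered states covered 60 cells, and of the 16 exceptions 8 were cells with Lat and Tcf7 but no Lck, 1 of them with Trat1. The order was set from these data, so the count describes the cells and does not test the order, and a chain of detection at 1 time says nothing about which gene comes first in a cell.

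**Figure D3:**
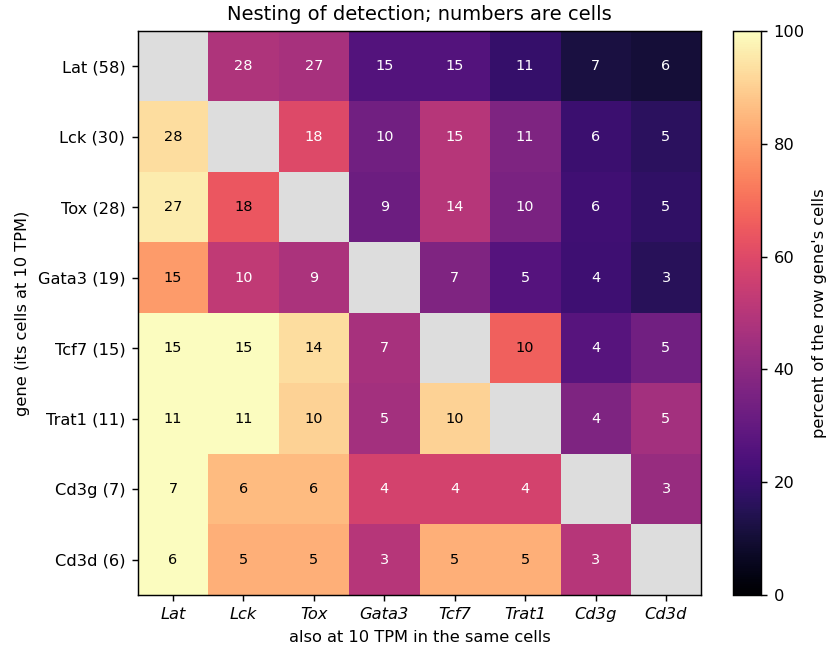
For each row gene (its number of cells at 10 TPM in parentheses), the colour gives the percent of those cells that also held the column gene at 10 TPM and the number gives the cells. The rows of Tcf7 and Trat1 reach 100% under Lat and Lck, and the Gata3 row stays between 47.4% and 52.6% under Tox and Lck.

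Gata3 was not nested in the chain. At 10 TPM, 10 of its 19 cells held Lck (52.6%, interval 28.9 to 75.6%, against 39.5% of all cells) and 7 held Tcf7, where the product of shares gives 3.75. At 1 TPM the counts were 19 of 27 with Lck and 16 of 27 with Tcf7. These counts lay above the products of shares, which give 7.5 cells for Lck at 10 TPM, and 15.6 for Lck and 13.1 for Tcf7 at 1 TPM. The intervals, which cover the counting of cells only, include the shares over all cells at both thresholds. A link of Gata3 detection to Lck or Tcf7 was not tested. Its Spearman correlation over the 76 cells was 0.19 with Tcf7, 0.14 with Lck and -0.0017 with Lat, where all cells share 1 preparation and a sum of 1000000 TPM.

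The CD3 chain genes overlapped in part. Of 7 Cd3g and 6 Cd3d cells at 10 TPM, 3 held both chains, where the product of shares gives 0.553. Cd3d cells carried Tcf7 and Trat1 in 5 of 6 cases each (83.3%, interval 35.9 to 99.6%), against products of 1.18 and 0.868. Cd3g cells carried Lck in 6 of 7 (product 2.76) and Tcf7 in 4 of 7 (1.38), and at 1 TPM Lck in 7 of 9 (77.8%, product 5.21). The 3 Cd3g cells without Tcf7 at 10 TPM had 98.0, 49 and 196 TPM of Cd3g, the last of them without Lck. No cell had Cd3e, and the zeta chain gene Cd247 was in 2 cells, both with Tcf7, so a full set of CD3 and zeta transcripts was found in none of the 76 cells.

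**Figure D4:**
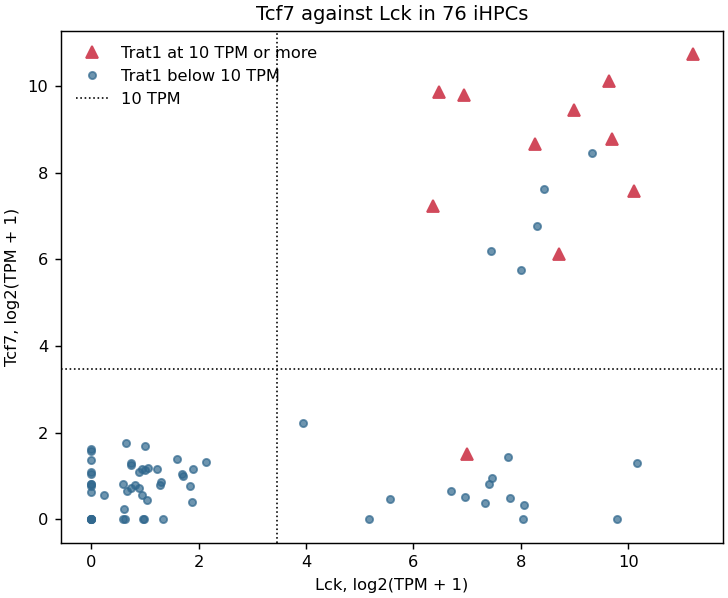
Tcf7 (vertical) against Lck (horizontal) in the 76 cells, both as log2 of TPM + 1, with dotted lines at 10 TPM. The upper left is empty, the 15 Tcf7 cells all lie in the upper right, and 10 of the 11 Trat1 cells (triangles) are among them.

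Over the 76 cells, Tcf7 had its highest Spearman correlation with Trat1 (0.60, rank 1 of 9684 genes found in at least 5 cells), then Tmem121 (0.55), then Tox (0.52), while Lck was at rank 12 (0.43, with 0.64 in title numbers 2 to 6 and 0.21 in 7 to 11) and Cd3d at rank 51 (0.33). These ranks depended on values under 10 TPM. With those set to 0, Tmem121 was at rank 1 (0.79), Trat1 at 2 (0.78), Lck at 3 (0.67) and Tox at 7 (0.62). Inside the 15 Tcf7 cells the correlation of Tcf7 was 0.72 with Trat1, 0.62 with Cd3g, 0.54 with Tox and Lat each, and 0.30 with Lck. The cell highest in Tcf7 was also highest in Lck, Trat1, Tox, Cd3g and Cd3d, and its 3061 detected genes were the fewest among the Tcf7 cells. The 5 cells highest in a member held 71.9% of all Tcf7, 86.6% of Trat1, 93.2% of Cd3g and 96.0% of Cd3d signal, against 51.2% of Lck and 23.3% of Lat.

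The genes most like the members by the same measure were partly shared. After Trat1, Tmem121 and Tox, Tcf7 was followed by Cd27, a co-stimulatory receptor of lymphocytes (0.50), 4930481A15Rik (0.50), Tspan31 (0.46) and Fam65b (0.45). For Lck they were Plac8 (0.68), Atp8b4 (0.67), Cd27 (0.61), the cytotoxic granule gene Nkg7 (0.59) and Crip1 (0.58). Plac8 also led the list of Lat (0.49), ahead of Selplg, the ligand gene of P-selectin (0.45), Usp18, Patz1 and Crip1. Trat1 was most like Tmem121 (0.63), Qrfp (0.56), Plac8 (0.53), Lpar6 (0.51) and 4930481A15Rik (0.50). Tox was most like Plac8 (0.49), Nkg7 (0.47), Tmem121 (0.46), Tnfrsf26 (0.45) and 0610009O20Rik (0.44) among genes outside the 10. Gata3 shared none of these, and the genes most like it included Tpd52 (0.53), Klhl6 (0.46), Tceb3 (0.46) and Mgat1 (0.43). With values under 10 TPM set to 0, only Tmem121 of the 5 outside genes nearest to Tcf7 stayed among the nearest 5.

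In the wider receptor pathway detection was uneven. Of 38 listed signalling genes 31 were in the table, and a median of 6 was detected per cell. The most often detected were Tespa1 and Ptprcap in 69 cells each at 1 TPM (67 and 53 at 10 TPM), the guanine nucleotide exchange factor gene Vav1 in 57 (52), the adaptor gene Lcp2 (SLP-76) in 48 (44), the kinase gene Csk in 29 (24) and the kinase gene Fyn in 21 (20). Another 13 of the 31 were in fewer than 5 cells at 1 TPM. Among these, the kinase gene Zap70 was in 2 cells, the pre-receptor chain gene Ptcra in 1, Cd4 in 2, Cd5 in 1, and Cd2 and Itpkb in 0. The constant regions of the receptor chains were not analysed here.

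Among early T lineage regulators, 30 of 31 listed genes were in the table and a median of 11 was detected per cell. Id2 was in 73 cells at 1 TPM (45 at 10 TPM), Lyl1 in 67 (67), Hhex in 63 (59), Lmo2 in 58 (46), Myb in 58 (53) and Notch2 in 57 (19). Lyl1, Hhex and Lmo2 are progenitor factors that are lower in committed T cells. Notch1 was in 15 cells (9), its target Hes1 in 16 (11) and its target Dtx1 in 0. Lef1, a close relative of Tcf7, was in 1 cell. Of the early lymphoid list, all 15 genes were in the table with a median of 3 per cell. Ltb was in 62 cells at 1 TPM (37 at 10 TPM), Flt3 in 40 (39), Cd27 in 33 (29), Cxcr4 in 17 (7) and Arpp21 in 10 (8).

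Of the genes of these 3 lists found in 1 to 9 cells at 10 TPM, 34 in all, 14 lay wholly in the Tcf7 cells, 14 in part and 6 not at all. The genes named from them were picked after their values were seen, and no test was made of them. The recombination gene Rag2 was in 5 cells, all with Tcf7, as were the 4 cells of the kinase gene Txk and the 3 cells each of Il7r, Notch3, Themis and Skap1. Lying wholly inside the Tcf7 cells was a property of 1.56% of 1023 other genes in 3 or 4 cells and of 0.172% of 1743 other genes in 5 to 9 cells, namely Rag2, Ly6d and Tnni1. Arpp21 was with Tcf7 in 7 of 8 cells, Ctla4 in 6 of 7, Ccr9, a receptor for thymus homing, in 5 of 7, and Hes1, a more frequent gene, in 8 of 11. Others were with Tcf7 in few or no cells, where the products of shares are also small. Cxcr4 was so in 0 of 7 cells (product 1.38), Id3 in 0 of 6 (1.18), Icos in 1 of 6 (1.18) and Ccr7 in 2 of 7 (1.38). Zap70 and Cd4 were so in 0 of 2 each (0.395) and Ptcra in 0 of 1 (0.197). Ccr7 thus lay above its product and the rest below. Rag1 and Dntt reached 10 TPM in 0 cells.

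Markers of other lineages lay in the same cells, and their part in the nesting was not tested. Of 23 NK and innate lymphoid genes in the table, 12 reached 10 TPM in at least 1 Tcf7 cell and 14 in at least 1 other cell, and their summed level was 3084 to 13553 TPM (median 6830) in Tcf7 cells and 1395 to 13182 TPM (median 4374) in the others. Tyrobp and Fcer1g, which myeloid cells share, were in all 76 cells. Nkg7 was in all 15 Tcf7 cells and 32 of the 61 others, and Gzma in 5 and 1. The defining genes Klrd1, Klrk1, Ncr1, Tbx21, Eomes and Il2rb were in 0 cells. Of 10 B lymphoid genes, Cd72 was in 6 of 15 Tcf7 cells and 4 of 61 others, Cd79b in 8 and 18, and the defining gene Cd79a in 0 cells. Their summed level was 0 to 440 TPM (median 135) in Tcf7 cells and 0 to 456 TPM (median 0.561) in the others.

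The mast cell list of 12 genes summed to 56 to 23327 TPM (median 1897) in Tcf7 cells and 6.3 to 12596 TPM (median 275) in the others. That signal was mainly Cpa3, in 12 of 15 and 42 of 61 cells, while Ms4a2 and Fcer1a were at 0 in every cell. Kit was in 8 Tcf7 cells and 25 others at 10 TPM, Gata2 in 4 and 30, Mcpt8 in 0 and 11 and Hdc in 0 and 6. Of the 5 mast cell genes in at least 5 cells, 2 were with Tcf7 above the product of shares and 3 below. The 16 granulocyte and monocyte genes summed to 2.82 to 2979 TPM (median 525) in Tcf7 cells and 10.6 to 10737 TPM (median 1354) in the others. Of its 10 genes in at least 5 cells at 10 TPM, all 10 were with Tcf7 in fewer cells than the product of shares. Prtn3 was so in 6 of its 55 cells, where the product gives 10.9, and Ctsg in 1 of its 28 (5.53). Others lay close to the product, such as Fcgr3 in 11 of 58 (11.4) and Csf1r in 3 of 17 (3.36). In the 3 T and lymphoid lists the same count was 14 of 49, with 35 above the product. Those above were 14 of 17 receptor signalling genes, 13 of 22 early T lineage regulators and 8 of 10 early lymphoid genes. In the S phase list 10 of 16 were above it, much as among the early T lineage regulators. The share of all genes above or below the product was not counted, so no difference between lists is read from these counts. For other genes in 5 to 9, 10 to 19 or 20 to 76 cells at 10 TPM, the median share of cells with Tcf7 was 20%. Tcf7 was in 19.7% of all cells. The S phase list of 16 genes was detected to a median of 10 members at 10 TPM in Tcf7 cells and 9 in the others. Of 12 genes that every cell uses, a median of 11 was at 10 TPM in Tcf7 cells and 10 in the others, and the median number of genes detected was 4177 in Tcf7 cells and 4188 in the others.

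The Tcf7 cells were spread over the titles. Titles combine a letter, A to H, with a number between 2 and 11. Tcf7 at 10 TPM was found in 4 of the 9 cells with letter A, in 0 with letter E, and in 1 or 2 for each other letter. There were 11 Tcf7 cells without letter A, 9 with numbers 2 to 6 and 6 with numbers 7 to 11. All Tcf7 cells held Lck at 10 TPM, so every part of them must do so, and these splits cannot test the nesting.

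The inducible Hox genes were not found at 10 TPM in the cells with Tcf7, an observation made after the values were seen, and induced and native transcripts cannot be told apart in the table. Hoxa10 was at 10 TPM in 18 cells, of which 0 held Tcf7 and 1 held Lck, where the products of the shares give 3.55 and 7.11 cells. Hoxa9 was so in 11 cells, of which 0 held Tcf7 and 1 held Lck, against 2.17 and 4.34. Among 2094 other genes in 10 to 19 cells, 4.15% likewise had 0 cells with Tcf7. Runx1 was at 10 TPM in 12 of the 15 Tcf7 cells and in 58 of the 61 others. At 1 TPM, Hoxa9 was in 2 and Hoxa10 in 2 of these 15 Tcf7 cells, at 7.21 and 4.88 TPM at most. In the 15 cells with Lck but not Tcf7 at 10 TPM the counts were 1 and 2. In the 46 cells without Lck they were 15 and 24.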

How the data were processed

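Per the labels' protocols, cDNA of sorted iHPCs came from Discover-sc WTA Kit V2 and libraries from the TruePrep V2 kit of Vazyme. The authors deposited 1 table of TPM in which every cell sums to 1000000, so depth is not kept. Build mm10 and the tools StringTie 1.3.4, HISAT2 2.1.0, SAMtools 0.1.19 and bcl2fastq are named in the submitters' processing notes. For annotation and strand, nothing was given in the sources used here.

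The 76 columns matched the titles. Detection was 1 TPM, and 10 TPM was set beside it. Nesting was the share of a gene's cells that held another gene, with the same count over all other genes as background. Correlations were Spearman's on log2(TPM + 1). Cells share 1 sample, so nothing was tested. Members, the 9 further gene lists and the rules were chosen with earlier results of these data known. Genes named were the members, up to 6 most detected genes of each list, receptor and early T genes in 0 cells, and the 5 outside genes most like each member found in at least 10 cells; other names were chosen after their values were seen. Some genes that this rule names are not reported here. The nesting counts and rankings were tested on simulated data. Python 3.11.15, pandas 2.3.3 and SciPy 1.17.1 were used. Alternatives were other thresholds, cell subsets, other correlations and TPM rescaled after ribosomal-protein genes were left out. No doublet caller was run, because each library came from 1 sorted cell.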

Additional observations from a re-analysis of the deposited data

How the results depend on the processing

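Shares outside the 95% interval of the reported value, and correlations that changed by over 0.1, are given here. No value changed sign. At any value above 0, the share of cells was 81.6% for Lck, 82.9% for Tcf7, 53.9% for Gata3 and 81.6% for at least 3 members; Tcf7 cells held Lck in 85.7% and Gata3 cells held Tcf7 in 85.4%. At 5 TPM the shares were 39.5% for Lck, 19.7% for Tcf7 and 32.9% for at least 3 members, with Lck in 100% of Tcf7 cells and Tcf7 in 38.1% of Gata3 cells. At 10 TPM they were 39.5%, 19.7% and 31.6%, with 100% and 36.8% for the same nestings; Trat1 cells held Lck in 100%. In title numbers 2 to 6, Lck was in 70.3% of cells and in 86.7% of Gata3 and 100% of 4 Cd3g cells. The correlation of Tcf7 with Lck was 0.64 there and 0.21 in numbers 7 to 11; it was 0.65 and 0.60 by Pearson with pseudocounts of 1 and 0.1, and 0.67 with values under 10 TPM at 0. Added after seeing the data, 10 TPM with at least 3500 genes, numbers 2 to 6, numbers 7 to 11 or letters B to H gave Lck in 100% of Tcf7 cells. These added settings could not have given less, because all Tcf7 cells held Lck at 10 TPM. The other 62 of 92 settings stayed within these bounds. The small number of cells limits Cd3g and Cd3d most. No paired analysis was possible because all cells belong to 1 group.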
